A study of Mus musculus with 8 samples.

Results

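The 80 genes described here bear the names of cytosolic ribosomal proteins and their paralogues. Their RNA was compared between 2 classes of microglia, the resident macrophages of the brain. Members were chosen by name, as gene symbols of the Rpl and Rps series together with Rpsa, Rplp0, Rplp1 and Rplp2, without pseudogene copies and without the S6 kinase genes. A summed count of at least 100 reads over the 8 libraries was also asked for. Of 84 matching names among 35583 genes, 80 passed, 48 for the large and 32 for the small ribosomal subunit. The 4 names under the minimum were Rpl23a with 50 counts, Rpl24 with 34, and Rpl3l and Rpl10l with 0 in all libraries, where a count of 0 allows up to 3 counts per library. Every one of the 80 members passed the expression filter and was tested.

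The cells came from the hypothalamus of wild-type mice, described as young, that had been injected with dye-carrying plasma protein 20 hours before the sort. Cells that carried the dye (plasma-positive) and cells that did not (plasma-negative) came from mice of that same description, and each class was profiled in 4 libraries by Smart-seq2, a full-length RNA protocol for small inputs. Strain, exact age and the number of animals behind a library are not given in the sources used here, nor is it said that the 4 libraries of a class came from separate mice, so p-values measure the spread between these libraries, which may be technical in part. The comparison asks which transcripts differ between microglia that had taken up plasma protein and those that had not.

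A cytosolic ribosome joins a small subunit, which reads the mRNA, to a large subunit, which forms the peptide bonds. Each subunit is built from ribosomal RNA and a fixed set of proteins, mostly present in a single copy, so the genes for these proteins are usually expressed together. Their mRNAs start with a run of pyrimidines, the 5′ terminal oligopyrimidine (TOP) tract, through which mTOR signalling controls their translation, and many of these genes have left processed pseudogenes across the genome.

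Library totals ran from 2963094 counts (plasma-negative replicate 4) to 21422738 and mean log2 totals differed by 0.31 between the groups, which is within the replicate spread (two-sided p = 0.8 by an exact permutation test of 4 against 4 libraries, whose smallest possible p is 0.0286). Microglia markers dominated both groups, with 69200 to 79500 summed CPM (counts scaled to library size) in the plasma-negative and 76200 to 81100 in the plasma-positive libraries over 12 genes, of which edgeR called Csf1r and C1qa higher. Markers of other cells were at lower levels, and some were higher in some or all plasma-positive libraries. The 10 neuron markers summed to 4.04 to 33.5 CPM against 14.7 to 317, the 8 oligodendrocyte markers to 163 to 230 against 222 to 537, the 8 astrocyte markers to 214 to 327 against 208 to 300, the 7 endothelial markers to 27.3 to 52.7 against 20.4 to 64.4, and the 8 border macrophage markers to 0.881 to 3.61 against 1.76 to 16.5, with 4 of these 8 at 0 counts throughout. Of the neuron markers 7 passed the expression filter, all 7 lay above 0 with a median log2 difference of 2.34, and edgeR called Pomc, the precursor of hypothalamic melanocortin peptides, higher. Its counts were 19, 21, 134 and 101 in plasma-positive replicates 1 to 4 and 0 in each of the 4 plasma-negative ones (edgeR adjusted p = 0.0346). Other neuron markers were uneven between libraries. Snap25 was at 38.3, 124, 0 and 0.894 CPM and Syt1 at 9.13, 71.8, 0.711 and 3.8 CPM in plasma-positive replicates 1 to 4. In the plasma-negative libraries they were at 0.336 to 17 and 0 to 7.62 CPM. Of the oligodendrocyte markers 6 were tested and 6 lay above 0, with a median of 1.26. EdgeR called none of these 6, with 2 higher at an unadjusted p under 0.05, and DESeq2 and limma each called 1 higher. The astrocyte sum was mostly Slc1a3 (log2 difference -0.36), and the other 3 of the 4 astrocyte markers tested lay above 0, Slc1a2 at 2.74, Gja1 at 2.29 and Aldoc at 1.58. EdgeR, DESeq2 and limma called none of these 4, with 2 higher and 1 lower at an unadjusted p under 0.05 by edgeR. Plasma-positive replicate 2 held the highest neuron and oligodendrocyte sums, 317 and 537 CPM, and without it the members' median log2 difference was 0.39. Plasma-positive replicate 3 stood apart in 7 blood myeloid markers, which reached 478 CPM there, with 300 CPM of S100a8 and 171 CPM of S100a9, so results are also given without it. The part of these other cells in the results below was not tested.

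Ribosomal protein RNA was higher in the plasma-positive libraries, by a ratio of 1.35 in summed CPM over all members and by similar amounts for both subunits. The 48 large subunit genes summed to 4030, 3780, 3940 and 4080 CPM in plasma-negative replicates 1 to 4 and to 5320, 5410, 4920 and 5610 CPM in plasma-positive replicates 1 to 4. The 32 small subunit genes summed to 3400, 3320, 3550 and 3560 CPM and to 4590, 4750, 4280 and 5030 CPM. In both sums the lowest plasma-positive library lay above the highest plasma-negative one. The large subunit means were 3960 ± 132 and 5320 ± 290 CPM (SD, n = 4), a ratio of 1.34, and the small subunit means were 3460 ± 117 and 4660 ± 313 CPM (SD, n = 4), a ratio of 1.35. As a share of all gene counts the 80 members took 0.742% to 0.787% of the plasma-negative and 0.882% to 1.01% of the plasma-positive libraries. The ratio of the mean shares was 1.24, lower than in CPM, because shares do not use the TMM factors. No test was run on these sums, because the members were chosen with earlier results of these data known. In bulk samples, more RNA per cell and more cells of a kind rich in these RNAs cannot be told apart.

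**Figure D1:**
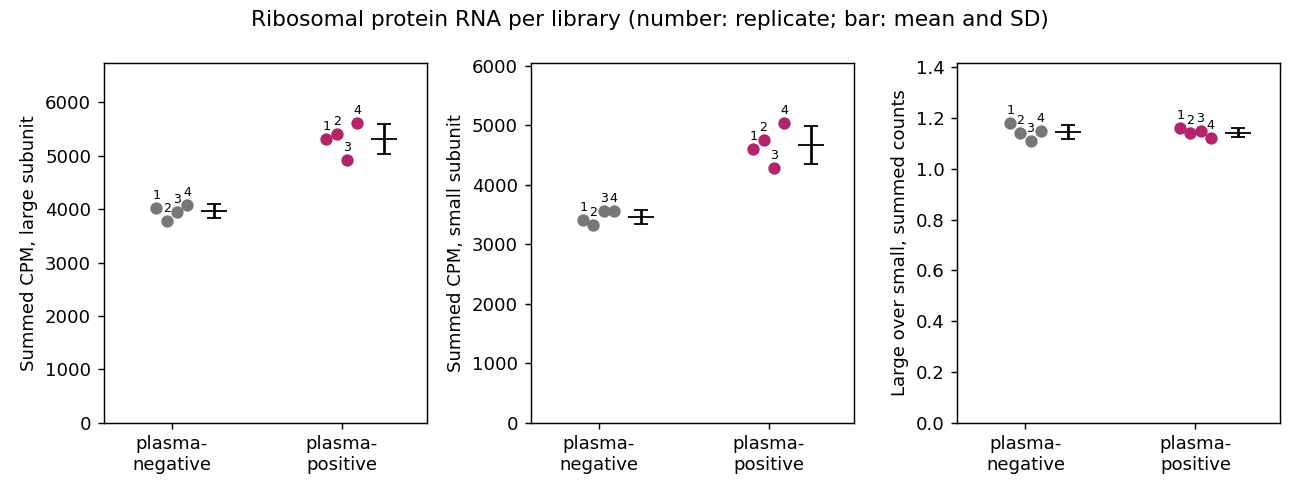
Summed CPM of the 48 large subunit genes (left) and the 32 small subunit genes (middle), and the ratio of their summed counts (right), in each library, with points numbered by replicate and bars for the mean and SD of 4 libraries. Plasma-positive libraries lie at 4920 to 5610 CPM against 3780 to 4080 for the large subunit, while the ratio of large to small stays between 1.11 and 1.18 in all 8 libraries.

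The balance between the subunits was close in the 2 groups. The large subunit held 1.18, 1.14, 1.11 and 1.15 times the counts of the small subunit in plasma-negative replicates 1 to 4, and 1.16, 1.14, 1.15 and 1.12 times in plasma-positive replicates 1 to 4. The groups overlapped, with means of 1.15 ± 0.0289 and 1.14 ± 0.0171 (SD, n = 4). Per length, in summed RPKM (library-scaled reads divided by exon length), the ratio was 1.35 to 1.43 in the plasma-negative and 1.31 to 1.41 in the plasma-positive libraries. The difference between the subunits' changes was not tested.

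Gene by gene, 71 of the 80 members had a log2 difference above 0 (plasma-positive minus plasma-negative), where 50.4% of all 13277 tested genes did. The median log2 difference was 0.40 over the members, a 1.32-fold higher level, with 0.41 for the large and 0.39 for the small subunit, beside 0.01 over all tested genes. The middle 50% of members lay between 0.27 and 0.52. Plasma-positive CPM exceeded plasma-negative CPM without overlap in 38 members (47.5%), 23 of the large and 15 of the small subunit, where 5.68% of all tested genes were apart in this direction. No member was apart in the other direction, where 4.59% of all tested genes were.

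At an adjusted p under 0.05 (edgeR's quasi-likelihood test, Benjamini-Hochberg over all genes), 6 of the 80 members rose (7.5%), where 0.844% of all tested genes were called higher. These were Rpl13a, Rpl32 and Rpl4 of the large subunit (3 of 48, 6.25%) and, among 3 of the small subunit (of 32, 9.38%), Rps3 and Rps14. No member was called lower by edgeR or DESeq2, where 0.565% of all tested genes were called lower by edgeR. At an unadjusted p under 0.05, 34 members were higher (42.5%), 19 of the large and 15 of the small subunit, and 0 were lower, where 7.13% and 6.67% of all tested genes were. Other tools moved the count. DESeq2 called 14 members higher, where it called 2.5% of all tested genes higher, and limma on log2(RPKM + 1) called 26, where it called 2.92%. After thinning to the smallest total, edgeR called 4 of 75 tested members, where 0.576% of all tested genes were called higher. With library totals alone it called 2, where 0.482% were. With the replicate number as a block it called only Rps3, where 0.392% were. The calls also changed with single libraries. Leaving out plasma-positive replicate 4 left none of the 6 called, where 0.295% of all tested genes were called higher. Leaving out plasma-positive replicate 3 left Rpl13a and Rps3, where 0.434% were, with a median log2 difference of 0.43 over the members. Leaving out plasma-negative replicate 1 or 3 left only Rpl13a (0.394% and 0.334% of all tested genes), leaving out plasma-negative replicate 2 left only Rpl4 (0.388%), and leaving out plasma-positive replicate 1 or 2 left 1 small subunit member (0.333% and 0.344%). In these 7 fits the share called thus fell over all genes too. Without plasma-negative replicate 4, the shallowest library, 6 members were called, with Rplp0 in place of Rpl4, where 0.901% of all tested genes were called higher.

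**Figure D2:**
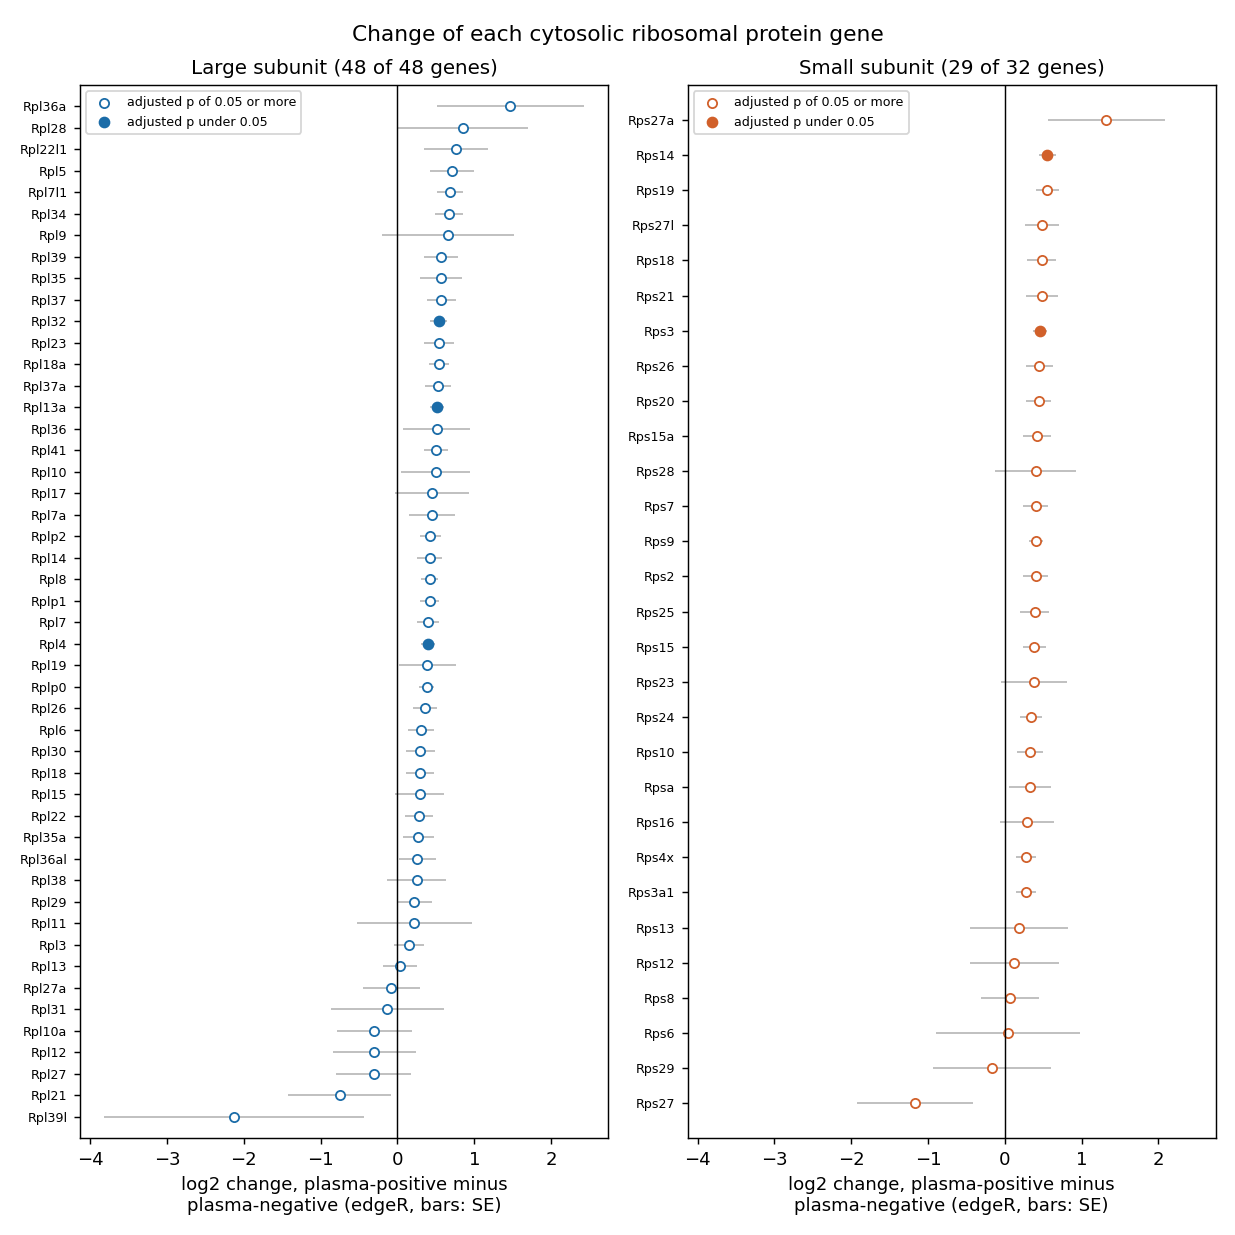
Fitted log2 difference of 77 of the 80 members with its SE, for the large subunit (left) and the small subunit (right), with the members called by edgeR filled. Most members lie between 0 and 1 to the right of the line at 0, and the members with wide bars at both ends, such as Rpl39l at -2.13 and Rpl36a at 1.47, are not called.

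Exon length also moved with the groups. Among the 5176 tested genes at 32 CPM or more, Spearman's rho between the log2 difference and log2 exon length was -0.457, a description across genes, which are not independent replicates. Members had a median merged exon length of 1810 bases, against 3980 for all tested genes. Merged length joins all annotated transcripts of a gene and can exceed its main coding transcript. Rpl18 had 4043 merged bases against 679, and Rps3 4483 against 1910. Whether the length offset below fully corrects the members was not tested. Among the 80 members themselves, rho was -0.0384. With a length offset, which removes each library's trend with length (rho over the 5176 genes then -0.00418), 0 members were called, where 0.354% of all tested genes were called higher, and 14 were higher at an unadjusted p under 0.05, where 5.48% of all tested genes were. With that offset 64 of the 80 members lay above 0, where 46.8% of all tested genes did, with a median log2 difference of 0.18 for the large and 0.18 for the small subunit and -0.04 for all genes.

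**Figure D3:**
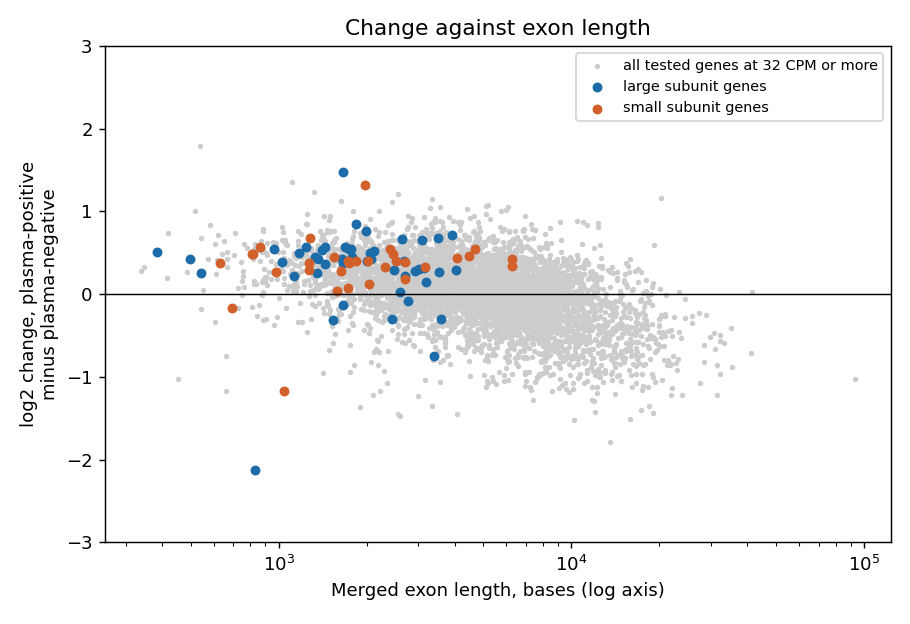
Log2 difference of each gene (plasma-positive minus plasma-negative) against merged exon length on a log axis, for all tested genes at 32 CPM or more in grey and for the 80 members in colour, with 1 grey gene outside the drawn range. The grey cloud slopes down with length, with a rho of -0.457, and the members sit at the short end.

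The 3 large subunit genes that rose include Rpl4, whose long internal loop lines the exit tunnel for the growing peptide, and Rpl13a, which can leave the ribosome to silence selected inflammatory mRNAs in interferon-treated macrophages. Rpl13a (chr7:45125558-45128761) was at 426, 399, 439 and 419 CPM in plasma-negative replicates 1 to 4 and at 598, 621, 539 and 658 CPM in plasma-positive replicates 1 to 4. The groups did not overlap, with means of 421 ± 16.5 and 604 ± 49.5 CPM (SD, n = 4). The log2 difference was 0.52 (SE 0.09, edgeR adjusted p = 0.0143), and with the length offset 0.35 (edgeR adjusted p = 0.115). Of its transcript's 50-base windows, 42.6% were found in no other gene, so reads of its 5 pseudogenes and its own may have been exchanged, and its level is uncertain.

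Rpl32 (chr6:115805505-115808747) was at 275, 214, 281 and 275 CPM in the plasma-negative and at 371, 373, 369 and 412 CPM in the plasma-positive libraries. The lowest plasma-positive library lay well above the highest plasma-negative one, and plasma-negative replicate 2 was low within its group. The log2 difference was 0.54 (SE 0.11, edgeR adjusted p = 0.0346), and with the length offset it was 0.24 and no longer passed (edgeR adjusted p = 0.402). Rpl4 (chr9:64173375-64178666) was at 535, 630, 507 and 576 CPM in the plasma-negative and at 794, 728, 717 and 725 CPM in the plasma-positive libraries. It did not overlap between the groups either, and its log2 difference of 0.40 (SE 0.09) was just inside the threshold by edgeR (adjusted p = 0.0492). With the length offset it was 0.21 and did not pass (edgeR adjusted p = 0.391).

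In the small subunit, Rps3 (chr7:99477896-99483738) sits at the entry of the mRNA channel and also acts in DNA repair. It was at 624, 629, 542 and 625 CPM in the plasma-negative and at 834, 895, 748 and 856 CPM in the plasma-positive libraries, without overlap. Means were 605 ± 42 and 833 ± 62 CPM (SD, n = 4), with a log2 difference of 0.46 (SE 0.09, edgeR adjusted p = 0.0245), or 0.40 with the length offset (edgeR adjusted p = 0.0668). Just 1 pseudogene shares 50-base windows with it and 97% of its windows were its own, so of the called members it is the least exposed to exchanged reads.

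Rps14 (chr18:60747098-60778546), a protein of the platform of the small subunit, was at 283, 233, 279 and 322 CPM in the plasma-negative and at 431, 405, 380 and 416 CPM in the plasma-positive libraries. It too did not overlap, and its log2 difference was 0.55 (SE 0.11, edgeR adjusted p = 0.0345), or 0.40 with the length offset (edgeR adjusted p = 0.143).

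**Figure D4:**
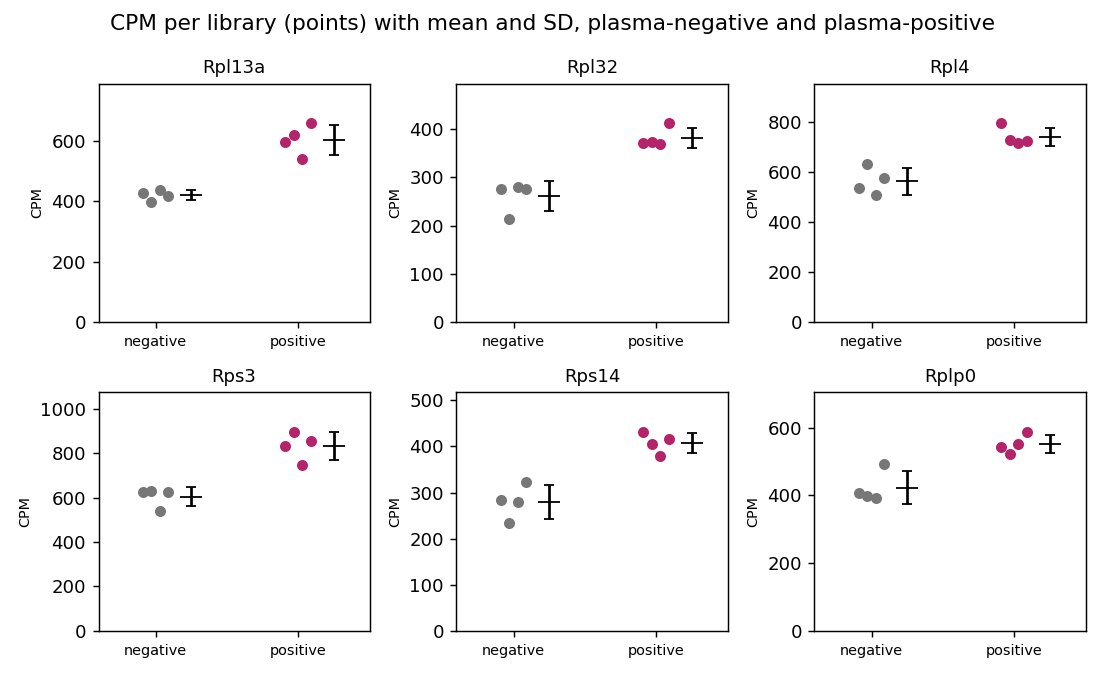
CPM in each library, with mean and SD of 4 libraries, for 5 members called by edgeR and for Rplp0, which edgeR did not call over all 8 libraries and DESeq2 and limma did. Plasma-positive points lie above all plasma-negative points in every panel, and in Rplp0 the plasma-negative library at 494 CPM comes closest to the plasma-positive ones, at 523 to 587 CPM.

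Just outside the threshold by edgeR, and inside it by DESeq2 and limma, was Rps9, named after its values were seen as the next in order of p. It was at 412 to 522 CPM in the plasma-negative and at 585 to 652 CPM in the plasma-positive libraries (log2 difference 0.40, edgeR adjusted p = 0.0571, DESeq2 adjusted p = 0.00305).

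The stalk of the large subunit, built from Rplp0, Rplp1 and Rplp2, recruits the elongation factors to the ribosome. The groups did not overlap in any of the 3, as in 47.5% of all members and 5.68% of all tested genes. Whether the 3 genes were called depended on the tool. None was called by edgeR over all 8 libraries, DESeq2 called Rplp0 and Rplp1 higher, limma called all 3 higher on both RPKM scales, and edgeR called Rplp0 without plasma-negative replicate 4. Of all tested genes, DESeq2 called 2.5% higher and limma on log2(RPKM + 1) 2.92%. Rplp0 was at 408, 398, 393 and 494 CPM in the plasma-negative and at 543, 523, 553 and 587 CPM in the plasma-positive libraries, a log2 difference of 0.38 (SE 0.10, edgeR adjusted p = 0.0804, DESeq2 adjusted p = 0.00938). Rplp1 was at 298, 239, 306 and 281 CPM and at 348, 409, 338 and 415 CPM, a difference of 0.42 (SE 0.12, edgeR adjusted p = 0.103, DESeq2 adjusted p = 0.0213). Rplp2 was at 124, 112, 128 and 142 CPM and at 167, 161, 149 and 203 CPM, a difference of 0.43 (SE 0.14, edgeR adjusted p = 0.18, DESeq2 adjusted p = 0.0951). The 3 stalk genes had like differences, each close to the median of all members.

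Other members with known second roles were listed at far lower levels. Rpsa, also described as a laminin receptor, was at 20.7, 18.5, 19.5 and 26.9 CPM in the plasma-negative and at 27.3, 28.2, 24.4 and 26.9 CPM in the plasma-positive libraries, which overlapped (log2 difference 0.33, edgeR adjusted p = 0.671). Rps27a, made as a fusion with ubiquitin, was at 0.664, 2.64, 4.13 and 3.7 CPM and at 4.4, 11.8, 5.89 and 5.47 CPM, apart but with a wide SE (log2 difference 1.32, SE 0.76, edgeR adjusted p = 0.494). Rps6, the substrate of the S6 kinases downstream of mTOR, was at 1.68, 0.504, 1.16 and 0.673 CPM and at 1.21, 0.458, 1.32 and 1.23 CPM, with no separation (log2 difference 0.04, edgeR adjusted p = 0.991). Rpl5 and Rpl11, which carry the 5S RNA into the ribosome and bind Mdm2 when assembly fails, were chosen after their values were seen. Rpl5 was at 13.1 to 24.3 CPM in the plasma-negative and at 26.5 to 37.4 CPM in the plasma-positive libraries (log2 difference 0.71, edgeR adjusted p = 0.297), and Rpl11 at 1.28 to 5.66 and 2.57 to 6.66 CPM (0.22, edgeR adjusted p = 0.94).

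The listed levels of the members were far from equal. Mean RPKM over the 8 libraries, a level per length, ran from 0.496 for Rps6 to 508 for Rplp1, a 1020-fold range with a median of 19.3. Among the highest were also Rpl32 at 257 and Rpl4 at 250, and among the lowest Rpl36a at 0.742 and Rpl28 at 1.06. Part of each transcript occurs elsewhere in the transcriptome. The share of a member's 50-base windows found in no other gene of GENCODE M21 ran from 1.35% (Rps27) to 100% (Rpl39l among them), with a median of 45%, and a median of 8 annotated pseudogenes shared windows with a member. Rpl7a shared windows with 120 pseudogenes, and 2 members shared with none. Spearman's rho between log2 mean RPKM and the unique share was 0.501 over the 80 members, which share libraries. Among the 33 members with at least 50% unique windows the median RPKM was 40.8, and among the other 47 it was 9.63. How reads with several matches were counted is not given in the sources used here, so low listed levels of members with many copies are uncertain.

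**Figure D5:**
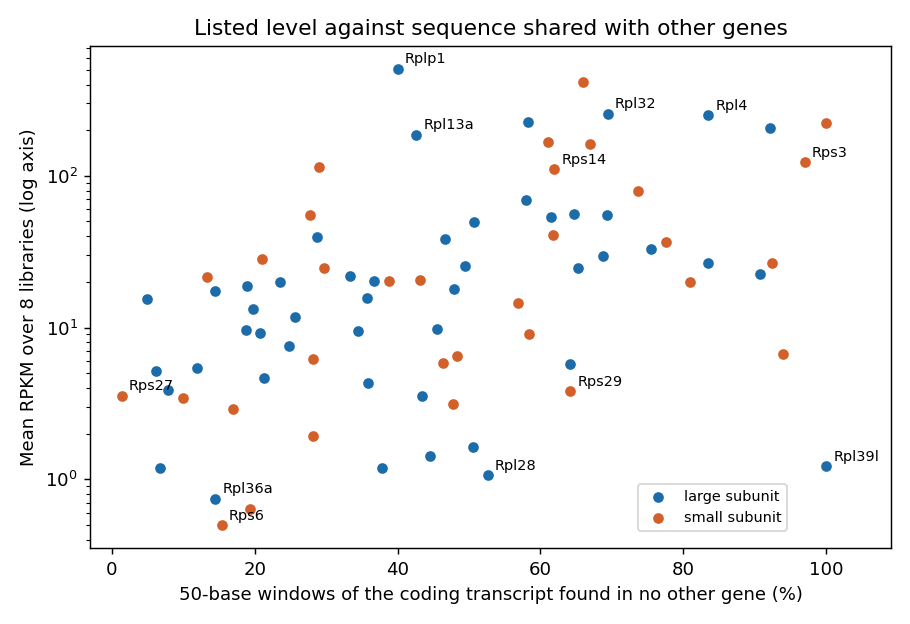
Mean RPKM over 8 libraries on a log axis against the percentage of 50-base windows of the coding transcript found in no other gene, for the 80 members coloured by subunit. Members with under 50% unique windows, such as Rps27 at 1.35%, have a lower median level (9.63 against 40.8 RPKM). Rplp1, the highest at 508 RPKM, is also among them, while Rpl39l and Rpl28 are low with unique shares above 50%.

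The members were also split by the share of their own sequence. Of the 33 with at least 50% unique windows, edgeR called 5, 25 were higher at an unadjusted p under 0.05 and 20 did not overlap between the groups, with a median log2 difference of 0.44. Of the other 47, edgeR called 1 (Rpl13a), 9 were higher at an unadjusted p under 0.05 and 18 did not overlap, with a median of 0.33. Over all tested genes edgeR called 0.844% higher, 7.13% were higher at that unadjusted p and 5.68% did not overlap in this direction. They were split by abundance in the same way. All 23 members at a mean of 100 CPM or more lay above 0, between 0.27 and 0.68, and edgeR called 6 of them. Of the 57 below 100 CPM, with a median of 0.38, edgeR called 0 and 14 were higher at an unadjusted p under 0.05. DESeq2 called 12 of the 23 and 2 of the 57, and limma on log2(RPKM + 1) called 16 and 10, where DESeq2 called 2.5% and limma 2.92% of all tested genes higher. The SD of log2 CPM within groups was lower at higher mean levels (Spearman's rho -0.714 over 80 members), and its median was 0.21 over members against 0.50 over all tested genes. The difference between these splits was not tested.

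Mammals carry a second copy of several ribosomal protein genes, and the pair Rps27 and Rps27l is shown in sequence because its members lay on opposite sides of 0. Rps27l is known as a target of p53. Both coding sequences below, from GENCODE M21 transcripts of build GRCm38, are 255 bases for 84 amino acids, with capitals where the pair differs. They differ at 61 positions (76.1% identical) and share no 50-base window.
Rps27: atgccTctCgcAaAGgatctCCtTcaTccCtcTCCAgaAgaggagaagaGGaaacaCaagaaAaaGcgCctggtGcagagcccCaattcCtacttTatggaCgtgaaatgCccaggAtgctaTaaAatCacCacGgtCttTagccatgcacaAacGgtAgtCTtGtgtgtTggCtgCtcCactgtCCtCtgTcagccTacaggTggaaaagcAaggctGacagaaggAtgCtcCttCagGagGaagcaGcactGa
Rps27l: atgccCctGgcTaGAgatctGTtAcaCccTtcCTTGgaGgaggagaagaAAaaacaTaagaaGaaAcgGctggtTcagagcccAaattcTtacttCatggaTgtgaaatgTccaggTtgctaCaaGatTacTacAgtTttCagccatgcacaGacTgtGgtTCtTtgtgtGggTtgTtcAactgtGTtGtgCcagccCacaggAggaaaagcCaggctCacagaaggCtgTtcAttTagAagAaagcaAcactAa

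Rps27l was at 30.5, 29.3, 28.1 and 41.7 CPM in the plasma-negative and at 43.8, 42.3, 48.4 and 45.4 CPM in the plasma-positive libraries, without overlap (log2 difference 0.48, SE 0.22, edgeR adjusted p = 0.368). Rps27 was at 7.79, 4.78, 4.37 and 10.4 CPM and at 2.64, 2.19, 0.964 and 6.37 CPM, with overlap (log2 difference -1.17, SE 0.76, edgeR adjusted p = 0.551). Neither passed by edgeR or DESeq2, and limma called Rps27l on log2(RPKM + 1) (adjusted p = 0.0482). The count ratio of Rps27l to Rps27 was 3.91, 6.12, 6.43 and 4 in plasma-negative replicates 1 to 4 and 16.6, 19.4, 50.2 and 7.12 in plasma-positive replicates 1 to 4, so every plasma-positive library lay above every plasma-negative one. The ratio was not tested, and it partly restates the choice of a pair on opposite sides of 0. In each of the other pairs the count ratio overlapped between the groups. Rps27 counts were few, 19 to 176 per library, and 1.35% of its windows are its own, the others occurring in further genes that include 8 pseudogenes, so its level is uncertain.

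Rpl39 and Rpl39l, the pair with the lowest fitted value of all members, also lay on opposite sides of 0. Rpl39l is known as a copy expressed in the testis. Their coding sequences are 156 bases each, for 51 amino acids, and differ at 23 positions (85.3% identical), again in capitals.
Rpl39: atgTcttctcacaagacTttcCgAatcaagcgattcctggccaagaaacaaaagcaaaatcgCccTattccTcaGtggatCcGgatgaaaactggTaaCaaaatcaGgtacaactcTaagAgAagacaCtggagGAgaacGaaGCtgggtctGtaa
Rpl39l: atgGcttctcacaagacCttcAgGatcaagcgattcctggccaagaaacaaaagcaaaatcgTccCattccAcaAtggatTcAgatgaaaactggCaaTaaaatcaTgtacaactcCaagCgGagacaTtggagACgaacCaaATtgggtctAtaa

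Rpl39l had 55, 69, 37 and 0 counts in plasma-negative replicates 1 to 4 and 0, 39, 0 and 0 in plasma-positive replicates 1 to 4. A count of 0 was thus found in both groups, and the fitted log2 difference of -2.13 (SE 1.69, edgeR adjusted p = 0.651) did not pass. Rpl39, on the X chromosome, was at 43.5, 31.5, 44.8 and 40 CPM and at 60.3, 62, 44.7 and 69.7 CPM, overlapping in replicate 3 (log2 difference 0.57, edgeR adjusted p = 0.259).

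The other pairs were Rpl7 with Rpl7l1, Rpl22 with Rpl22l1 and Rpl36al with Rpl36a, and edgeR called neither gene in any of them. DESeq2 and limma on both RPKM scales called Rpl7l1 higher. Rpl7l1 was at 93.9, 60.4, 76.9 and 83.4 CPM in the plasma-negative and at 118, 133, 110 and 144 CPM in the plasma-positive libraries, without overlap (log2 difference 0.68, SE 0.17, edgeR adjusted p = 0.0792, DESeq2 adjusted p = 0.0121). Its partner Rpl7 was at 89.5, 132, 116 and 126 CPM and at 147, 158, 154 and 150 CPM, also apart (log2 difference 0.40, edgeR adjusted p = 0.233). The coding sequences of Rpl7 and Rpl7l1 were 54.5% identical, and the ratio of Rpl7l1 to Rpl7 counts overlapped between the groups, at 0.459 to 1.05 and 0.709 to 0.963.

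Rpl22l1 was at 20.1, 7.99, 14 and 30.6 CPM and at 37.4, 39.6, 20.5 and 23.9 CPM, overlapping (log2 difference 0.76, edgeR adjusted p = 0.468), and Rpl22 at 106, 111, 104 and 130 CPM and at 137, 142, 96.1 and 172 CPM (0.28, edgeR adjusted p = 0.542). Rpl36a, with the largest fitted difference of all members, was at 0.221, 1.13, 0.99 and 1.01 CPM and at 1.43, 4.27, 1.17 and 2.35 CPM. These were apart, but rested on 3 to 84 counts per library (log2 difference 1.47, SE 0.96, edgeR adjusted p = 0.556). Its partner Rpl36al, an intronless copy, was far more abundant, at 27.8 to 39.5 CPM and 34.9 to 48.2 CPM (0.26, edgeR adjusted p = 0.705). Rpl36a and Rpl36al differ at 39 of 321 coding bases.

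Of the 4 X-linked members, Rpl10, Rpl36a, Rpl39 and Rps4x, none was called by edgeR, DESeq2 or limma. Rps4x, a protein of the body of the small subunit, was at 101, 114, 113 and 96.9 CPM in the plasma-negative and at 133, 127, 119 and 136 CPM in the plasma-positive libraries, apart by a small margin (log2 difference 0.28, edgeR adjusted p = 0.379). Rpl10, which completes the large subunit at the last step of its maturation, was at 5.38 to 10.3 CPM and at 9.14 to 15.3 CPM (0.50, edgeR adjusted p = 0.708). Rpl3, which lies near the peptidyl transferase centre, was at 69.6, 74.3, 78.1 and 50.8 CPM and at 85.8, 76.6, 76.5 and 64.6 CPM (0.15, edgeR adjusted p = 0.8), and its muscle copy Rpl3l had no counts.

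The 9 members with a fitted value below 0 were Rpl39l and Rps27, described above, Rpl21 at -0.75, Rpl27 at -0.31, Rpl10a and Rpl12 each at -0.30, Rps29 at -0.17, Rpl31 at -0.13 and Rpl27a at -0.08 on the log2 scale. None passed by edgeR, DESeq2 or limma, and the groups overlapped in every one. Rpl31 lay above 0 by limma, at 0.31 on log2(RPKM + 1). Rpl21, with 81 pseudogenes that share its windows, was at 6.15, 12.8, 1.98 and 11.4 CPM in the plasma-negative and at 4.07, 3.86, 6.14 and 5.03 CPM in the plasma-positive libraries (edgeR adjusted p = 0.701). Rps29 was at 4.12, 2.01, 4.89 and 3.7 CPM and at 1.1, 3.86, 3.76 and 4.36 CPM (edgeR adjusted p = 0.956). A low member above 0, Rpl28, was as scattered. It was at 2.79, 1.01, 2.27 and 1.01 CPM and at 4.29, 4.42, 3.1 and 1.12 CPM (log2 difference 0.85, edgeR adjusted p = 0.737).

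Start sites are shown because the TOP tract is the shared regulatory feature of these mRNAs. RefSeq promoters of build GRCm38.p6, 250 bases before and 50 after each listed start, were found for 61 of the 80 members. A C at the start base followed by 4 pyrimidines was present in 13 of the 61 (21.3%), against 2.67% of 17492 protein-coding genes. Listed starts can be some bases off the start used in these cells, so a missing match says only that these letters are not at that base. The windows below run from 15 bases before the start, with the tract in capitals. Shown are the longest tract (Rpl15), the S6 kinase substrate Rps6, the stalk gene Rplp2, Rps27 of the pair above, and Rpl4, which rose, without a match at the listed base.
Rpl15: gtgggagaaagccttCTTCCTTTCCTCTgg
Rps6: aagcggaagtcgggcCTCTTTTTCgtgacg
Rplp2: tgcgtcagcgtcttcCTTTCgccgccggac
Rps27: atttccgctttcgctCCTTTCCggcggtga
Rpl4: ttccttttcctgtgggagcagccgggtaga

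These lie at chr14:18270972-18271001 (minus strand), chr4:86857353-86857382 (minus), chr7:141447636-141447665 (plus), chr3:90213634-90213663 (minus) and chr9:64173372-64173401 (plus) in the order given. The median log2 difference was 0.42 over the 13 members with the tract at the listed start and 0.39 over the 48 without it. A core of ETS-family sites, CTTCCG or its reverse complement CGGAAG on either strand, was in 42 of the 61 promoters (68.9%; 23 of 37 large and 19 of 24 small subunit genes), against 23.5% of protein-coding genes. The median difference was 0.40 with it and 0.38 without it. CCATCTT or AAGATGG, a core of YY1 sites, was in 10 of 61 (16.4%) against 7.18%, and TATAAA or TTTATA in 7 of 61 (11.5%) against 14.8%. Rps18 is shown as an example with 3 copies of the ETS core, in capitals, in the 100 bases up to its start (chr17:33955666-33955765, minus strand).
Rps18: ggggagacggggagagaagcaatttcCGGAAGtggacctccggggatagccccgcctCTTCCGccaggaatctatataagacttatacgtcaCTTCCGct

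Genes that work with the ribosome were read from lists of the same kind. Of 17 other TOP genes of translation, 2 rose by edgeR, where 0.844% of all tested genes did, and DESeq2 called 3. Of the 17, 15 lay above 0, where 50.4% of all tested genes did, with a median log2 difference of 0.33 (0.20 with the length offset). Eef1a1, the factor that brings aminoacyl-tRNA to the ribosome, was at 1240, 1210, 1210 and 1370 CPM in the plasma-negative and at 1850, 1750, 1700 and 1850 CPM in the plasma-positive libraries, without overlap (log2 difference 0.51, SE 0.06, edgeR adjusted p = 0.00458). Eef2, which moves the ribosome along the mRNA, was at 728, 685, 809 and 735 CPM and at 890, 1000, 976 and 950 CPM (0.37, SE 0.08, edgeR adjusted p = 0.0393). Ribosomal proteins with other symbols did not pass: Rack1, a signalling scaffold on the small subunit, was at 419, 492, 493 and 475 CPM and at 555, 633, 470 and 543 CPM (0.23, edgeR adjusted p = 0.363), and Fau, made as a fusion with a ubiquitin-like protein, was at 4.04 to 6.05 and 4.16 to 7.71 CPM (0.29, edgeR adjusted p = 0.893).

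Genes that make or regulate ribosomes, and those of the mitochondrial ribosome, held no gene called by edgeR. Over all tested genes, 50.4% lay above 0, and 7.13% were higher and 6.67% lower at an unadjusted p under 0.05 by edgeR. DESeq2 called 332 of all 13277 tested genes higher and 362 lower, and limma on log2(RPKM + 1) called 2.92% higher. Of 39 tested assembly factors, 0 were called in either direction by edgeR, 1 was higher and 4 lower at an unadjusted p under 0.05, 20 lay above 0, and the median log2 difference was 0.01. Of 13 tested genes of RNA polymerase I and ribosomal DNA transcription, 0 were called by edgeR, with 1 higher and 1 lower at an unadjusted p under 0.05 (median 0.22). Of 17 regulators of TOP mRNA translation, 0 were called by edgeR, with 2 higher and 2 lower at an unadjusted p under 0.05 (median 0.00). None of 11 snoRNA host genes of the TOP class was called by edgeR, and 0 had an unadjusted p under 0.05 (median 0.20). Of the 78 mitochondrial ribosomal protein genes 0 were called by edgeR, with 3 higher and 0 lower at an unadjusted p under 0.05. Of these, 57 lay above 0 with a median of 0.24, or 0.09 with the length offset, against 0.40 and 0.18 for the cytosolic members. DESeq2 called 1 assembly factor and 2 regulators lower and 1 mitochondrial ribosomal protein gene higher, and none in the other 2 lists. Limma called 1 mitochondrial gene higher and no gene of the other 4 lists. The difference between these lists and the members was not tested.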

How the data were processed

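RNA of sorted hypothalamic microglia was sequenced in 8 libraries, 4 plasma-positive and 4 plasma-negative, grouped by their titles. The count table deposited by the authors holds whole read counts per gene, from top-hit alignments per the file headers, and the RPKM table deposited by the authors holds the same reads divided by exon length and library size. bcl2fastq, Trim Galore, STAR, HTSeq and build mm10 are named in the submitters' processing notes. The treatment of reads with several matches and of strand is not given in the sources used here. The 16 StDev columns were not used.

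The group difference of each gene was fitted to the counts in R 4.3.3 with edgeR 4.0.16 (TMM factors, filterByExpr, quasi-likelihood F test of group over all 8 libraries, Benjamini-Hochberg, threshold 0.05). CPM values are TMM-scaled. On simulated data, with changes set in genes of all levels, the fit missed differences as small as those of most members. A gene not called may therefore still differ. The members and lists were chosen with earlier results of these data known. Genes named were, per subunit, the called members, the 2 highest and 2 lowest log2 differences and the 2 highest mean RPKM, then paralogue pairs and 6 members fixed by name (Rplp0, Rplp1, Rplp2, Rpsa, Rps27a, Rps6), Fau, Rack1 and up to 3 called genes of each other list. Rps4l was not analysed here. Results of some genes that this rule names are not reported here.

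Identifiers of 35546 of 35583 genes were in GENCODE M21 (GRCm38), 35397 with the same start and end, which gave exon lengths and the 50-base windows. Promoters were those of RefSeq. Alternatives were other normalizations and filters, DESeq2 1.42.0, limma 3.58.1 on log2(RPKM + 1) and log2(RPKM + 0.1), loess offsets (span 0.3) for exon length, thinning to the smallest total, added pseudogene-suffixed copies, the replicate number as a block and leaving out each library. The offset for length with GC content and the restriction to members with at least 50% unique windows were chosen after seeing the data. The libraries carry no molecular identifiers, so amplified reads can stem from 1 molecule and the floor of 3 counts covers counting error only.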

Additional observations from a re-analysis of the deposited data

Results flagged for a closer look

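Of 94 groups of 4 values checked among the members named and the ratios, 12 held 1 library far from the other 3. Chance would flag about 1 in 20 of independent groups. These groups share libraries and some rest on few counts, so that rate is a rough guide. In the plasma-negative libraries, Rpl32 was low in replicate 2 (214 CPM, nearest 275), Rps3 was low in replicate 3 (542 CPM, nearest 624), Rplp0 was high in replicate 4 (494 CPM, nearest 408) and Rpl36a was low in replicate 1 (0.221 CPM, nearest 0.99). In the plasma-positive libraries, Rpl4 was high in replicate 1 (794 CPM, nearest 728), Rpl32 was high in replicate 4 (412 CPM, nearest 373), Rps6 was low in replicate 2 (0.458 CPM, nearest 1.21), Rpl27 was low in replicate 4 (5.81 CPM, nearest 8.12), Rpl10a was high in replicate 1 (25 CPM, nearest 13.4), Rpl12 was high in replicate 2 (9.51 CPM, nearest 6.38) and Rpl39l was high in replicate 2 (1.98 CPM, with 0 in the other plasma-positive libraries), as was its count ratio to Rpl39 (0.032 against 0), which rests on the same counts.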

How the results depend on the processing

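No member was called lower under any alternative tried, and the members' median log2 difference stayed above 0 in every one. The number called moved with the settings. Of all genes, 187 were called (112 higher, 75 lower). DESeq2 called 694 (332 higher, 362 lower), limma on log2(RPKM + 1) 447 and on log2(RPKM + 0.1) 432, thinned libraries 113, the length offset 69 and the length and GC offset 79, and library totals alone, which shifted the median of all genes to -0.11, 227 (64 higher, 163 lower). limma on log2(RPKM + 1) shifted that median to 0.11 and called 388 higher and 59 lower, and with 0.1 added it was 0.16. In each of these 3 fits 71 of the 80 members lay above that median. Large subunit members called, 3 in the reported fit, were 1 with totals alone, 9 with DESeq2, 16 with either limma fit and 0 with either offset. Small subunit members called, also 3, were 1, 5, 10 (8 with 0.1 added) and 0. The median of the large subunit (0.41) was 0.29 with totals alone, 0.55 with limma on log2(RPKM + 0.1), 0.18 with the length offset and 0.19 with the length and GC offset, and that of the small subunit (0.39) was 0.18 and 0.17 with the offsets.

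Leaving out 1 library gave 66 to 203 genes called, 0 to 3 large and 0 to 3 small subunit members called, medians of 0.37 to 0.43 and 0.33 to 0.43, and a difference in log2 totals of -0.33 to 0.62, negative only without plasma-negative replicate 4.

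The numbers are not stated to mark a shared animal, so they were not taken as pairs. Deviations of same-numbered libraries had correlations of 0.0119, 0.0126, 0.0109 and 0.0315. Their mean was 0.0167, against -0.00556 for different numbers, which does not decide whether animals were shared. With the replicate block 74 genes, 0 large and 1 small subunit member (Rps3) were called. With block and length offset these were 12, 0 and 0, at medians of 0.20 and 0.19, and with block, length and GC offset 11, 0 and 0, at 0.20 and 0.19.

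Signs turned for 17 of the 80 members under at least 1 alternative, among them 7 from above to below 0 with the length offset, 9 with GC added, 4 with totals alone and 4 in each direction after thinning. Of the members named, Rps6 was -0.08 with totals alone, -0.19 and -0.20 with the offsets, -0.15 and -0.17 with the block added, and -0.18, -0.09, -0.02, -0.08 and -0.03 without plasma-negative replicate 2 or 4 or plasma-positive replicate 1, 3 or 4. Rps29 was 0.14 after thinning, and ran from -0.37 to 0.12 over the fits that left out 1 library, above 0 without plasma-negative replicate 3 (0.01) or plasma-positive replicate 1 (0.12). Rpl3 was -0.05 after thinning and -0.02 and -0.01 with the length and GC offset without and with the block, and Rpl36al -0.00421 with that offset. Rpl31, at -0.13, was 0.31 and 0.58 with limma, 0.44 with the block, 0.22 and 0.21 with block and offsets and 1.09 after thinning. After thinning Rpl11 was -0.32, Rpl27 0.26 and Rpl12 0.12, and Rpl10a was 0.00498 with limma on log2(RPKM + 0.1). Over the fits that left out 1 library, Rpl31 ran from -0.46 to 0.34, Rpl11 from -0.08 to 0.47, Rpl10a from -0.62 to 0.02 and Rpl27a from -0.24 to 0.17. Fau, a ribosomal protein gene outside the members, was -0.03 and -0.05 with the length offset without and with the block, and -0.000804 and -0.03 with GC added. The cause of these shifts was not tested. Depth limits members of few counts such as Rps6, Rpl36a and Rpl39l, where 3 counts equal 0.14 to 1.01 CPM in the plasma-negative libraries.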
